A study of Mus musculus with 24 samples.

Results

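The H3K4me3 arm of the experiment consists of 8 of the 24 samples in the series, namely the libraries whose titles name H3K4me3, with 4 prepared 10 days and 4 prepared 48 h after kidney injury. Male mice of genotype Sox9IRES-CreERT2/+:R26RtdT/+, 9 to 12 weeks old and weighing 25 to 30 g, underwent bilateral ischaemia-reperfusion of the kidneys and received tamoxifen at that time. Cre recombinase expressed from the Sox9 locus then switched on the red reporter tdTomato, so every animal in both groups carried the same alleles and the same injury, and no uninjured group was part of this comparison. The reporter marks cells in which Sox9 was active around the injury, and their progeny, whether or not Sox9 was still made at collection. Red cells from cortex and outer medulla were sorted, about 100000 per pellet, fixed with 0.2% formaldehyde and divided into 3 aliquots for Sox9 antibody, H3K4me3 antibody or input. The groups rest on the sample titles, since the cell type label names day 10 even for libraries titled 48 h. The replicates were labelled as biological.

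H3K4me3, trimethylation of lysine 4 of histone H3, is deposited by the SET1 and MLL methyltransferase complexes at the first nucleosomes of active and poised genes. It is densest just downstream of transcription starts, is favoured by CpG-rich promoters through CpG-binding subunits of these complexes, and is scarce in gene bodies and in silent, CpG-poor families such as olfactory receptors. In kidney, as in other tissues, maps of it are used to tell which promoters are active or poised. CUT&RUN maps it by tethering a nuclease to the antibody, which releases the DNA around the bound nucleosome.

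The promoters of 5 genes are shown because they hold the patterns that the comparison turned on. The sequences are those of RefSeq on GRCm38.p6 (the assembly of mm10), from 250 bases before to 50 after a listed transcription start, 5′ to 3′ on the strand of the gene, with CpG dinucleotides in capitals. Ybx1, which encodes a Y-box RNA- and DNA-binding protein, had a peak within 1000 bp of this start in 8 of 8 lists (chr4:119294464-119294763, minus strand, 32 CpG). Cdc27, a subunit of the anaphase-promoting complex, had one in 7 of 8 lists (chr11:104550571-104550870, minus strand, 21 CpG). Elavl1, which encodes the RNA-stabilising protein HuR and starts head to head with the chemokine gene Ccl25, had one in 3 lists, all from 10 days (chr8:4325051-4325350, minus strand, 39 CpG). Slc5a8, a monocarboxylate transporter of the kidney tubule, had one in 4 lists, all from 48 h (chr10:88885742-88886041, plus strand, 20 CpG). Krtap6-2, a hair keratin-associated protein gene, had one in 8 of 8 lists with a CpG-poor promoter (chr16:89420062-89420361, minus strand, 1 CpG). The Ybx1 start lies inside the annotated span of the gene, so its peaks count as start peaks but mostly not as gene-end peaks. Ybx1 was chosen after its values were seen, and the other 4 were chosen from the named genes in the same way.
Ybx1: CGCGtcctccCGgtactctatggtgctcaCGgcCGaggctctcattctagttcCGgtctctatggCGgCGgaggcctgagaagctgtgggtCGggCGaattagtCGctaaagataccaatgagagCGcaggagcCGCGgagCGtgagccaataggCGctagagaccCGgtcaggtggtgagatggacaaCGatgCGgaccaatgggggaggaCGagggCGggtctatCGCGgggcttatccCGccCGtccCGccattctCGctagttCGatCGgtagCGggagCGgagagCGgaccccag
Cdc27: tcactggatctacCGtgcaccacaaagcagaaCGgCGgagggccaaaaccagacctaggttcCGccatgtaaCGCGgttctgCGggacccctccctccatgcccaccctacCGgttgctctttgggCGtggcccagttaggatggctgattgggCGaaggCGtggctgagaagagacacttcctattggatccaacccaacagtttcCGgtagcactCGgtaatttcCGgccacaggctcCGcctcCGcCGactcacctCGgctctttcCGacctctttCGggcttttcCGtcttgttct
Elavl1: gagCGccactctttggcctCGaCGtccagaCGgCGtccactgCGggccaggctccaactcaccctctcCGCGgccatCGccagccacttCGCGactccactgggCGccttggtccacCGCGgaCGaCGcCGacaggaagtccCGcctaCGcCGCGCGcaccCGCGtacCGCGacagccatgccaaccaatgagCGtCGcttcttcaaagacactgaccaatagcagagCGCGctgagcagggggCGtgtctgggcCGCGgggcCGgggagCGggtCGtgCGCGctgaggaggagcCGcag
Slc5a8: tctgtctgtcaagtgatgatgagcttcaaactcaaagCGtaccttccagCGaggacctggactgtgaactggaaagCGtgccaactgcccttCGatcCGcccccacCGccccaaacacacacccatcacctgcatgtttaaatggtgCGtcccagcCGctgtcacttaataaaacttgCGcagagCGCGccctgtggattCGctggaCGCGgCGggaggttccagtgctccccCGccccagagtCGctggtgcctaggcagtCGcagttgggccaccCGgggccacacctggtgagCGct
Krtap6-2: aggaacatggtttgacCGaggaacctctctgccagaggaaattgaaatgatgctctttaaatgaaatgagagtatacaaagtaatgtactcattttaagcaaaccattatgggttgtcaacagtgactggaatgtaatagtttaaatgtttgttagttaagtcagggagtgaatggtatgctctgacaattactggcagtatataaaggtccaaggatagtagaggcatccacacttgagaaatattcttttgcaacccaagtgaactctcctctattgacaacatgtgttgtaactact

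The 8 lists held 24718 to 84789 peaks on chromosomes 1 to 19 (median 31427.5), and with no read depth in the sources used here, the number of lists per time, 4, limits the precision. At 10 days the lists had 84789, 29599, 71149 and 31047 peaks in replicates 1 to 4, and at 48 h 28224, 31808, 35595 and 24718. The 2 longest lists, 10 days replicates 1 and 3, were from the same time. Peak height, solved from the authors' fold and p-value, came in whole multiples of a list-specific unit, called a step here (within 0.05 of a whole number for 99.6% to 100.0% of peaks). Between 92.3% and 97.1% of peaks stood at 1 step, the lowest height in their list. A peak is placed by its summit: at a gene end within 1000 bp of either end of one of 20665 protein-coding genes, otherwise in a gene body or between genes. To remove list length from the comparison, 24718 peaks were drawn at random from each list 100 times and averaged, unless full lists are named. 10 days replicate 1 stood apart in several measures described below, and results are given with and without it.

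Most H3K4me3 peaks at both times lay away from promoters. In the equal draws, the share within 1000 bp of a transcription start was 8.31%, 5.88%, 5.93% and 5.55% in 10 days replicates 1 to 4, and 5.92%, 5.55%, 6.36% and 6.27% in the 48 h lists. Replicate 1 of 10 days was the highest of the 8 lists, and the other 7 overlapped. Starts take up 1.46% of the bases spanned by the peaks, so the full lists held 3.8 to 5.69 times as many peaks near starts as this share of bases. Peaks within 1000 bp of a 3′ end were 1.6% to 1.82% in the 8 lists. Peaks at either gene end made up 8.93% ± 1.23 at 10 days and 8.52% ± 0.414 at 48 h (SD over 4 lists each). The difference of 0.413 percentage points did not pass a two-sided exact permutation test (p = 0.743, adjusted p = 0.857), and it turned to -0.190 points without 10 days replicate 1. With 70 arrangements of 4 against 4 lists, the smallest p that such a test can give is 0.0286, and 0.0571 with 3 against 4. Adjusted p-values are by Benjamini and Hochberg over 10 planned results unless stated. The 10 were chosen with earlier results of these data known. None of the 10 passed by the exact permutation test, and 1 had an unadjusted p under 0.05.

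Height separated 10 days replicate 1 from the rest more than placement did. The values by height are from full lists, so list length is not removed from them, and the second longest list, 10 days replicate 3, ranked second after replicate 1 in the shares at 2 or more steps given here. The solved height of 1 step ranged from 59.8 to 197 between lists, so a cut-off in steps is not the same height in each. Of the 6501 peaks of 2 or more steps in 10 days replicate 1, 39.0% lay within 1000 bp of a transcription start. In 10 days replicates 2 to 4 the share was 11.8%, 19.6% and 11.1%, and in the 48 h lists it was 12.2%, 12.5%, 18% and 13.3%. At 3 steps and above it was 50.9% in 10 days replicate 1 (of 1113 peaks), against 3.32% to 12.0% in the other 7 lists, where 49.7% to 65.6% of such peaks lay between genes. Seen from the promoters, 35.9% of the start peaks of 10 days replicate 1 reached 2 steps, against 16.4% in 10 days replicate 3 and 6.13% to 10.4% in the other 6. Among 1-step peaks the start share was nearly the same in every list (5.20% to 6.07%). Compared by time, peaks of 2 or more steps lay near a start in 20.4% ± 13.0 of cases at 10 days and 14% ± 2.69 at 48 h (SD over 4 lists each, two-sided exact permutation p = 0.543, adjusted p = 0.703 over the 22 measures added after the data were seen). Without 10 days replicate 1 the difference fell from 6.36 to 0.145 percentage points. From pooled cells, more cells carrying the mark at a promoter and more of the mark per cell cannot be told apart. The part of read depth in these heights, with no depth in the sources used here, was not tested.

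**Figure D1:**
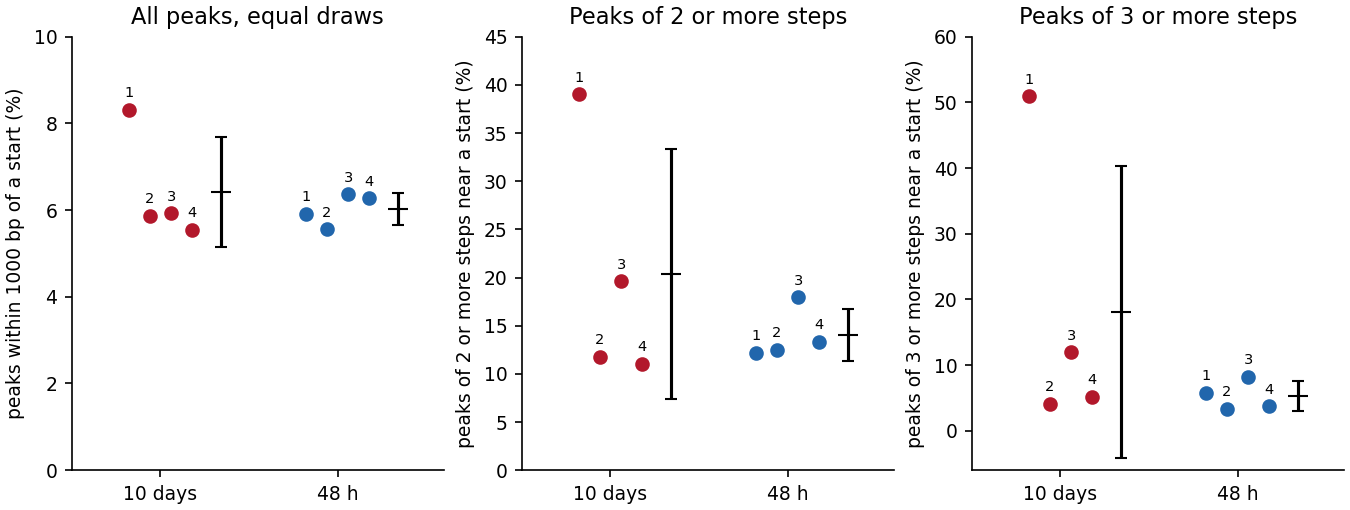
Share of H3K4me3 peaks within 1000 bp of a transcription start (vertical axes, percent) for all peaks in equal draws, for peaks of 2 or more steps and for peaks of 3 or more steps in full lists. Each point is a list with its replicate number, and bars are mean ± SD of 4 lists; 10 days replicate 1 rises from 8.31% to 50.9% with height while the other 7 lists stay at or below 19.6%.

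The position of summits around the start, also taken from full lists, again set 10 days replicate 1 apart. In 10 days replicate 1, summits were densest in the 100 bp just before the start (18.7% of its 7058 start peaks), with a median at +37.0 bp. In the other 7 lists the densest 100 bp lay after the start, the share in the 100 bp before it was 8.92% to 11.8%, and the median was at +120 to +143 bp. The 8 Sox9 lists of the same pellets had medians of +115 to +141.5 bp and 7.95% to 11.1% in the 100 bp before the start. Taking peaks of 2 or more steps alone, the 100 bp before the start held 27.6% in 10 days replicate 1 and 19.8% in 10 days replicate 3, against 7.21% to 10.2% in the other 6 H3K4me3 lists. The median summit position over all start peaks was 103.5 ± 44.8 bp at 10 days and 134 ± 9.78 bp at 48 h (SD over 4 lists each), a difference of -30.8 bp (two-sided exact permutation p = 0.171, adjusted p = 0.471 over the 22 added measures) that was -8.58 bp without 10 days replicate 1.

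**Figure D2:**
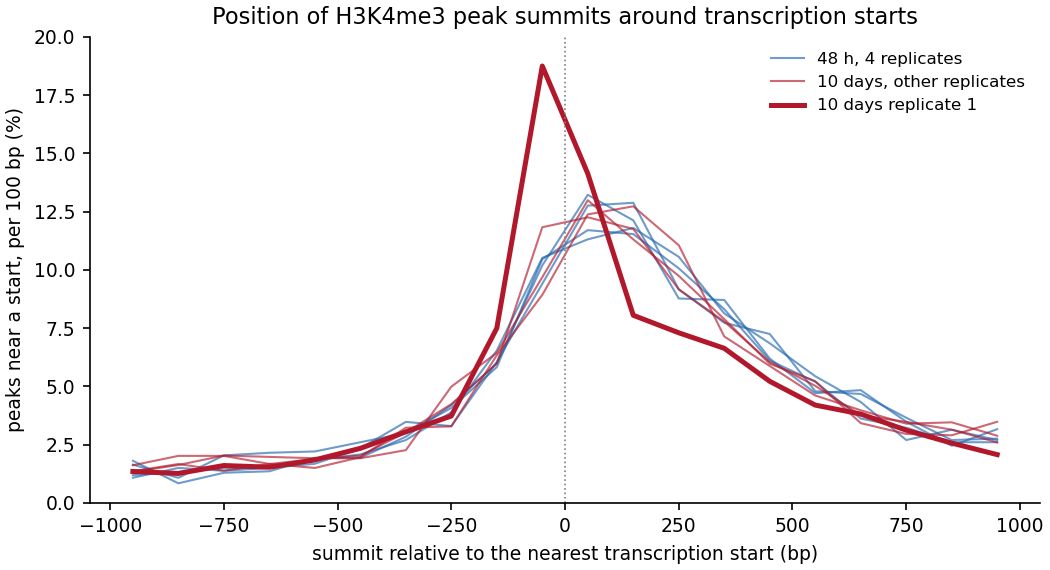
Position of peak summits relative to the nearest transcription start (horizontal axis, bp, negative upstream) as a percent of the start peaks of each list per 100 bp (vertical axis), full lists. The thick line, 10 days replicate 1, peaks at 18.7% in the 100 bp before the start, and the other 7 lists form broader curves that peak after it.

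Single promoters showed how far summits could lie apart between lists. At Ybx1 the highest start peak stood at 6, 1, 2 and 2 steps in 10 days replicates 1 to 4, with summits at -36, +203, -104 and +126 bp from the start. In the 48 h lists it stood at 1 step in all 4, with summits at +936, +722, +693 and +340 bp. Summits at 48 h lay farther into the gene than in any 10 days list, and the 1000 bp window counts peaks together here that do not share a position. At Cdc27 the summits lay together: 10 days heights were 7, 9, 8 and 10 steps and 48 h heights 8, 6, 6 and 0, with every summit between +165 and +201 bp. An end peak at Cdc27 was also present in 4 of 8 Sox9 lists. Elavl1 and Ccl25 shared a tall peak in 10 days replicates 1 and 3, at 15 and 23 steps with summits at +64 and +62 bp from the Elavl1 start. 10 days replicate 4 had a separate 1-step peak at -656 bp there, while 10 days replicate 2, all 4 lists from 48 h and all 8 Sox9 lists had none. Slc5a8 had 1-step peaks at +423, +300, +323 and +455 bp in the 48 h lists and none at 10 days. Krtap6-2 stood at 14, 13, 13 and 15 steps at 10 days and 8, 15, 17 and 9 at 48 h, with summits within +100 to +130 bp, and had a peak in 8 of 8 Sox9 lists too.

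The body share was the planned measure in which the times did not overlap, and it did not pass after adjustment. In the equal draws the body share of all peaks was 41.7%, 42.6%, 42.6% and 42.9% in the 10 days lists, and 43.5%, 43.6%, 43.2% and 44.4% in the 48 h lists. The difference of -1.21 percentage points had an exact permutation p of 0.0286, the smallest possible, and an adjusted p of 0.286. Alone at that p, a result could not have passed the adjustment over 10 results. The direction of the difference held under all 15 alternatives tried, from -3.86 to -0.808 points. Leaving out a list or using the replicate block could not have turned it, because the times did not overlap. Over peaks away from gene ends alone, bodies took 46.6% ± 0.0970 at 10 days and 47.7% ± 0.662 at 48 h (SD over 4 lists each). Bodies hold 40.4% of the bases outside gene ends. The difference was -1.11 points (exact permutation p = 0.0286, adjusted p = 0.126 over the 22 added measures) and -1.15 points without 10 days replicate 1. In full lists the 10 days mean was the lower on 18 of 19 chromosomes, chromosome 16 being the exception. The chromosomes are parts of the same lists and not replicates, so no test was made on this count. In the full Sox9 lists of the same pellets the values were 46.5% ± 1.55 and 47.7% ± 0.782 (SD over 4 lists each), and their groups overlapped (exact permutation p = 0.2).

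The full lists were also divided by the state of the promoter in 10 days replicate 1, which is left out of this comparison because it defined the classes. Bodies of genes with no start peak there took 21.0% ± 0.0338 of peaks away from gene ends in the other 3 lists of 10 days and 21.5% ± 0.293 in the 4 lists of 48 h, a difference of -0.507 points (exact permutation p = 0.0571, the smallest possible). Bodies of genes with a start peak of 2 or more steps there took 6.24% ± 0.0400 and 6.45% ± 0.161, a difference of -0.213 points (exact permutation p = 0.0571). Bodies of genes with a 1-step start peak there took 9.19% ± 0.162 and 9.42% ± 0.295. In that class the times overlapped (difference -0.230 points, exact permutation p = 0.4). With genes in 4 equal classes of length, those between 17491 and 45016 bp had 8.40% ± 0.0825 at 10 days and 8.90% ± 0.262 at 48 h (SD, n = 4 each, exact permutation p = 0.0286, adjusted p = 0.126), and the other 3 classes overlapped between the times. Peaks between genes made up 48.6% ± 0.730 at 10 days and 47.8% ± 0.747 at 48 h (SD, n = 4 each, exact permutation p = 0.2, adjusted p = 0.4).

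**Figure D3:**
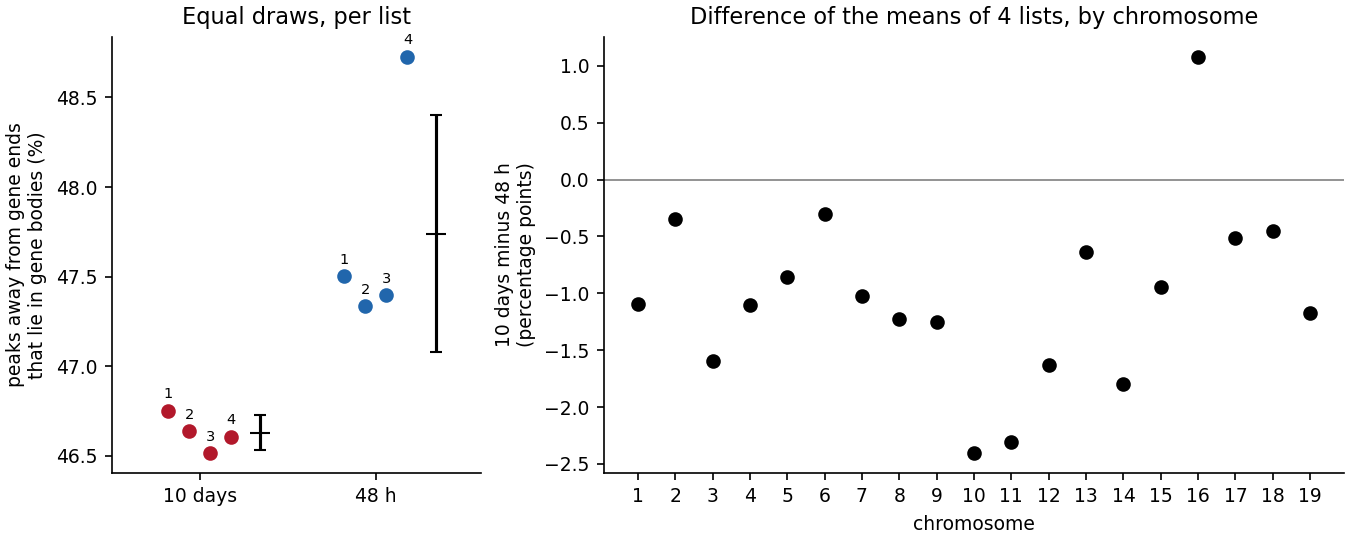
Left, share of peaks away from gene ends that lie in gene bodies (percent, axis not from 0) in each list, equal draws, with replicate numbers and mean ± SD of 4 lists. Right, the difference of the means (10 days minus 48 h, percentage points, full lists) on each chromosome, below 0 on 18 of 19. The chromosomes are parts of the same lists and not replicates.

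Peaks were narrow at both times. Median width was 122, 131, 140 and 135 bp in the full lists of 10 days and 138, 137, 144 and 135 bp in those of 48 h. In the equal draws it was 132 ± 7.29 bp and 138.5 ± 3.92 bp (SD, n = 4 each), a difference of -6.37 bp (exact permutation p = 0.2, adjusted p = 0.4) that was -3.15 bp without 10 days replicate 1. Start peaks were wider than peaks elsewhere by list medians, at 148 against 121 bp in 10 days replicate 1 and at 137 to 153 against 131 to 144 bp in the other 7. Peaks of 500 bp or more, well short of what is usually called a broad H3K4me3 domain, were 0.290% ± 0.00818 and 0.296% ± 0.0503 of peaks at 10 days and 48 h (SD, n = 4 each, exact permutation p = 0.771, adjusted p = 0.857). In full lists, 76 of the 246 wide peaks of 10 days replicate 1 (30.9%) lay at a gene end, 24 of 202 in 10 days replicate 3 (11.9%), and 0 to 7 in each of the other 6 lists. Wide gene-end peaks recurred little: Gm52030, a predicted gene, had one in 6 lists, and Setd5, a chromatin regulator, Mrtfa, a coactivator of serum response factor, and Ndrg1, a stress-response gene, had one in 2 lists each.

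Clustering of peaks at promoters was strongest in 10 days replicate 1. In the equal draws, 16.3% of its start peaks had another peak within 2000 bp, against 9.35% to 12.1% in the other 7 lists. Genes with 2 or more peaks at one end numbered 165.5 in 10 days replicate 1, against 72.4, 70.9 and 74.0 in the other 10 days lists and 76.8, 72.8, 96.3 and 89.0 at 48 h. By time this was 95.7 ± 46.6 and 83.7 ± 10.9 genes (SD, n = 4 each, exact permutation p = 0.971, adjusted p = 0.971), and without 10 days replicate 1 the difference of 12.0 genes became -11.3. Between genes 4.34% ± 0.380 of peaks at 10 days and 4.68% ± 0.251 at 48 h had a neighbour (SD, n = 4 each). In gene bodies the shares were 5.83% ± 0.314 and 6.50% ± 0.362 (SD, n = 4 each) without overlap (exact permutation p = 0.0286, adjusted p = 0.126 over the 22 added measures). Over all peaks the neighbour share was 5.59% ± 0.334 and 5.99% ± 0.294 (SD, n = 4 each, exact permutation p = 0.143, adjusted p = 0.4). The genes with clustered end peaks in most lists were Sfi1, a centrosomal protein gene, and Atp2b1, a plasma membrane calcium pump, in 5 lists each. LOC100504180, Gm40364, Gm40363, Duxf3, a double homeobox gene, and Zswim6 followed with 4 lists each. Sfi1 and the Dux genes have near-identical copies, between which reads cannot be placed with certainty.

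Few genes were marked in every full list, and recurrence counted this way depends on list length. An end peak was present in no list at 6168 of 20665 genes (29.8%), in 1 list at 5862 (28.4%), in 4 at 1122 (5.43%) and in 8 of 8 at 10 genes (0.0484%). The 10 were Rps29, Krtap6-2, Wls, Sfi1, Arid2, Gm38469, LOC100504180, Sdf4, Fscn1 and Klc3. Rps29, which encodes a small-subunit ribosomal protein, was the tallest of them, at 94, 45, 34 and 29 steps at 10 days and 70, 49, 40 and 44 at 48 h. Its recurring region, chr12:69159293-69159593, lies beyond the annotated gene, and 8 of 8 Sox9 lists had an end peak at Rps29 as well. Ribosomal protein genes have processed copies, so the placement of these reads is uncertain, as it is for Krtap6-2. Wls, the carrier of Wnt ligands to the cell surface, had 3, 5, 6 and 6 steps at 10 days and 6, 7, 5 and 2 at 48 h. The Wls region (chr3:159939410-159939679) lies past the 3′ end, and only 1 list had a peak near a Wls start. Fscn1, which bundles actin, and Klc3, a kinesin light chain, were marked at 1 step, except for 2 steps at Fscn1 in 48 h replicate 4, and each had a start peak in 7 lists. Sdf4, a calcium-binding protein of the Golgi that starts head to head with B3galt6, had 1 or 2 steps throughout and a start peak in 7 lists. Arid2, a subunit of a SWI/SNF chromatin remodeller, and Gm38469 lie next to each other and carry the same values. Of the 8 Sox9 lists, 7 had an end peak at Wls, 7 at Sfi1, 6 at LOC100504180 and 5 at Arid2 and Gm38469. At Fscn1 4 of the Sox9 lists had an end peak, at Klc3 3 and at Sdf4 1. A peak in 8 lists was not always the same peak: the best shared region held peaks of 8 lists at Rps29, Krtap6-2 and Wls, 7 at LOC100504180, 6 at Fscn1, 5 at Sfi1, 4 at Sdf4, Arid2 and Gm38469, and 3 at Klc3.

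The overlap of marked genes in equal draws was computed for every pair of lists. On average 17.5% of the genes of the smaller set were shared within 10 days, 16.4% within 48 h and 16.6% between the times. Without 10 days replicate 1 the means were 15.4%, 16.4% and 15.8%. For scale, 10.1% to 13.6% of all 20665 genes were marked per list in the equal draws, with 10 days replicate 1 the highest. The pairs share lists, so no test was made.

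Genes marked in every list of a time and no list of the other were few. In the equal draws, 6.11 genes (0.0296% of 20665, range over draws 1 to 11) had an end peak in 4 of 4 lists at 10 days and 0 of 4 at 48 h. The reverse held for 4.04 genes (0.0195%, range 1 to 10). In full lists the numbers were 49 (0.237%) and 3 (0.0145%), and without 10 days replicate 1, which leaves 3 lists to satisfy, they were 77 (0.373%) and 4 (0.0194%). List length is not removed from the full-list counts, and the 2 longest lists were from 10 days. Ranked by steps summed over the lists, which sets their order only, the 10 days genes were led by Ctdnep1, a nuclear envelope phosphatase. Ctdnep1 was at 5, 1, 1 and 1 steps in replicates 1 to 4. Sin3b, a scaffold of histone deacetylase complexes, was at 3, 1, 2 and 1 steps, with its region (chr8:72723214-72723573) over the start in 4 of 4 lists. Of the 8 genes named here it was the only one with a region common to all 4 lists. The best shared region held peaks of 3 lists at Tnfsf13 and Vps37c and of 2 lists at the other 5. At Tnfsf13 and Vps37c that region lay past the 3′ end, and each gene had a start peak in 1 list. The best shared region of Ctdnep1 also lay past its 3′ end, though Ctdnep1 had a start peak in 4 lists. Smad5, a transducer of bone morphogenetic protein signals, was at 3, 1, 1 and 1 steps, and Abhd17a, a depalmitoylase, at 3, 1, 1 and 2. Nova2, a splicing factor of neurons and endothelium, was at 1, 2, 2 and 2 steps, and Vps37c, a sorting protein of endosomes, at 2, 2, 2 and 1. Tnfsf13, a ligand of B cells, was at 2, 1, 2 and 2 steps, and Erp29, a chaperone of the endoplasmic reticulum, at 1, 2, 2 and 1 with end peaks in 6 of 8 Sox9 lists. The 48 h genes were Slc5a8, the sperm gene Spesp1 and St8sia2, a sialyltransferase, each at 1 step in 4 of 4 lists. At Slc5a8 and Spesp1 a single region carried the peaks of all 4 lists (chr10:88886222-88886523 and chr9:62281941-62282296), whereas at St8sia2 no region was shared by any pair of lists.

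The tallest end peaks of 10 days replicate 1 after Rps29 were those of Ccl25 and Elavl1, Krtap6-2, Deaf1, a transcription factor, and Cdc27. Deaf1 stood at 9, 0, 1 and 2 steps at 10 days and 6, 1, 0 and 0 at 48 h. Its shared region, in 3 lists, lay near the 3′ end, and Deaf1 had a start peak in 2 lists. Exoc8, of the exocyst, and Sprtn, a DNA repair protease, share a start region (chr8:124897462-124898318) at 6, 2, 1 and 1 steps at 10 days and 0, 0, 2 and 0 at 48 h. Lrpprc, a mitochondrial RNA-binding protein, stood at 6, 0, 3 and 0 steps at 10 days and at 0 in the 48 h lists. Zmiz2, a coactivator, stood at 6, 0, 0 and 1 and at 1, 0, 0 and 0. These genes were ranked on 10 days replicate 1, so their heights there are a description.

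In full lists, promoters marked in 10 days replicate 1 had a higher share marked in each other list than promoters without a peak there. Of 16457 genes with a listed start, 2628 had a start peak of 2 or more steps in that list, 3407 a peak of 1 step and 10422 none. In 10 days replicates 2 to 4, 16.6%, 41.8% and 16.7% of the first class had a start peak, against 8.14%, 17.8% and 8.41% of the last. At 48 h the values were 15.8%, 18%, 22.9% and 14.8% against 7.46%, 7.90%, 10.3% and 7.16%. Dividing the first share by the last gave 2.12 ± 0.195 for the 3 lists of 10 days and 2.17 ± 0.0992 for the 4 lists of 48 h (SD), a difference of -0.0532 (two-sided exact permutation p = 0.629). In the Sox9 lists of the same 7 pellets the ratio was 2.12 ± 0.253 (SD, n = 7), against 2.15 ± 0.136 (SD, n = 7) for H3K4me3 (mean difference 0.0317, exact sign-flip permutation over pellets, p = 0.6875). Within promoters of 25 or more CpG the ratio was 1.13 to 1.39 in the 7 H3K4me3 lists, within those of 15 to 24 CpG it was 1.09 to 1.53, within those of 5 to 14 CpG 1.55 to 2.03, and within those of 4 or fewer 2.56 to 5.44, where the first class held 62 genes.

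Marked promoters were CpG-rich in every full list. The 20085 listed promoters held 15.7 CpG per 300 bases on average, and those with a peak within 1000 bp of the start held 23.0 ± 0.299 at 10 days and 23.4 ± 0.157 at 48 h (SD, n = 4 each). In 10 days replicate 1, 9.08% of promoters with 4 CpG or fewer had a peak and 59.6% of those with 25 or more, a ratio of 6.56. In the other 7 lists the shares were 2.82% to 7.40% and 16.5% to 39.3%, and the ratio was 5.31 to 6.19. The GC box GGGCGG, the binding site of Sp1-like factors, which itself holds a CpG, was present on either strand in 66.1% to 67.7% of marked promoters of the 8 lists and in 47.0% of all promoters. The TATA box TATAAA was present in 6.43% to 7.93% against 12.7%, and the CCAAT box CCAAT in 33.6% to 37.8% against 38.1%. Both strands were searched, and the 3 motifs were counted independently. Marked promoters of the 8 Sox9 lists held 20.4 to 24.4 CpG on average, a range that takes in the H3K4me3 values. Among the promoters shown above, Ybx1 holds GGGCGG and CCAAT, Slc5a8 GGGCGG, Cdc27 and Elavl1 CCAAT, and Krtap6-2 TATAAA.

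**Figure D4:**
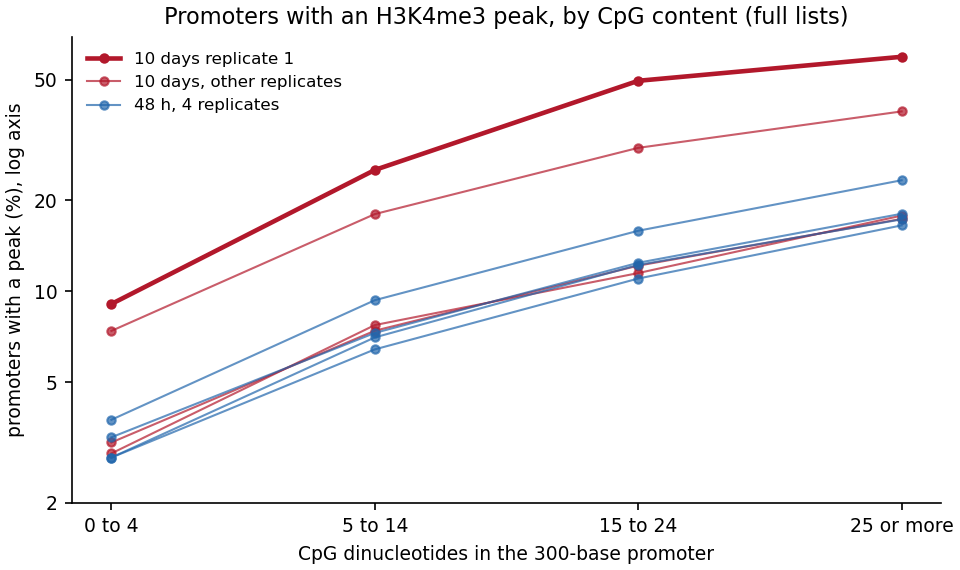
Share of listed promoters with an H3K4me3 peak within 1000 bp of the start (vertical axis, percent, log scale) in 4 classes of CpG count per 300 bases (horizontal axis), with a line for each full list. All 8 lines rise, from 9.08% to 59.6% in 10 days replicate 1 and, in the other 7 lists, from at most 7.40% to at most 39.3%.

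Housekeeping, stress, ribosomal and respiratory gene families had their highest shares in 10 days replicate 1, as did all genes together, and receptor families expressed in sensory tissue were marked rarely in every list. Over all genes, 13.6% had an end peak in the equal draws of 10 days replicate 1 and 10.1% to 11.2% in the other 7 lists. Housekeeping genes (28) were at 32.3% in 10 days replicate 1 and 8.0% to 21.4% elsewhere. Immediate early and stress genes (30), which respond to injury within minutes, were at 31.5% and 11.4% to 23.4%. Cytoplasmic ribosomal protein genes (82) were at 22.5% and 9.59% to 17.1%, and oxidative phosphorylation genes (84) at 19.9% and 9.85% to 16.5%. Proteasome subunit genes (38) were at 20.1% and 3.92% to 19.1%, and zinc finger genes named Zfp (388) at 17.0% and 9.50% to 10.9%. Divided by the share of all genes in the same list, the order of the lists depended on the family and on list length. Housekeeping genes were highest in 10 days replicate 1 in the equal draws (2.37 times all genes, next 2.11 in 10 days replicate 4) but not in full lists (1.95 against 1.99). Immediate early and stress genes were likewise highest there in the equal draws (2.32, next 2.19 in 48 h replicate 1) but not in full lists (1.82 against 2.2). Ribosomal protein genes were highest there both ways (1.65 and 1.68). Oxidative phosphorylation genes were highest in 10 days replicate 3 (1.55 and 1.51, against 1.46 and 1.45 in replicate 1), and proteasome genes in 10 days replicate 2. With peaks of 2 or more steps in the full list, 10 days replicate 1 marked 13 of 28 housekeeping, 14 of 30 immediate early and stress, 32 of 82 ribosomal and 26 of 84 oxidative phosphorylation genes, against 3016 of all 20665 genes (14.6%). The same counts in 10 days replicate 3 were 1, 3, 6 and 9, against 926 of all genes (4.48%).

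Steps are units of each list, so equal numbers of steps in different lists are not equal heights. The heights of single members are a description. Jun, an immediate early transcription factor, stood at 3, 0, 1 and 0 steps at 10 days and 0, 1, 2 and 0 at 48 h, and Junb at 3, 0, 2 and 1 and at 0, 0, 1 and 0. The heat shock gene Hspa1b, which has a near-identical neighbour, Hspa1a, stood at 2, 1, 0 and 0 and at 0, 1, 1 and 1. Gapdh, of glycolysis, stood at 2, 0, 1 and 2 steps at 10 days and 1, 0, 0 and 0 at 48 h, and the actin gene Actg1 at 1, 0, 1 and 0 and at 0, 1, 1 and 1. Rpl14, of the large ribosomal subunit, stood at 2, 0, 1 and 0 and at 1, 0, 1 and 2, and Uqcrh, of respiratory complex III, at 3, 0, 1 and 2 and at 0, 0, 1 and 0.

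By time, the shares of 29 of the 30 gene lists overlapped in the equal draws. The exception was the list of 6 stromal markers, at 1.54% ± 3.08 at 10 days and 14.1% ± 2.01 at 48 h (SD, n = 4 each), which rests on a single marked gene in each of 5 lists. Housekeeping genes were at 18.8% ± 10.4 (SD, n = 4) at 10 days, 14.3% ± 6.38 without replicate 1 (SD, n = 3) and 11% ± 3.12 at 48 h (SD, n = 4). Immediate early and stress genes were at 19.9% ± 8.42, 16% ± 4.05 and 18.6% ± 3.41, and ribosomal protein genes at 13.7% ± 6.05, 10.7% ± 1.65 and 13.9% ± 3.13. Wnt pathway genes (52) were at 17.1% ± 2.71 at 10 days and 18.1% ± 5.77 at 48 h (SD, n = 4 each), and their full-list share was at or above that of all genes in 8 of 8 lists (1.00 to 2.22 times). Fzd1, a Wnt receptor, led them after Wls, at 2, 1, 1 and 0 steps and at 1, 0, 1 and 1. Core and linker histone genes (80) were at 16.1% ± 6.51 and 15.3% ± 3.04 (SD, n = 4 each). The paired histone genes H2ac20 and H2bc21 shared a region (chr3:96221162-96221592) at 3, 2, 0 and 3 steps at 10 days and 7, 3, 2 and 0 at 48 h. Each had an end peak in 5 of 8 Sox9 lists. Olfactory receptor genes (1104) were low in all 8 lists, at 1.79% to 2.81%. So were vomeronasal receptor genes (352), at 1.18% to 2.61%, and defensin genes (71), at 2.82% to 5.0%. Promoters of these families, in the same order, hold 1.28, 1.46 and 1.96 CpG on average, against 15.6 for all genes with a listed promoter. Housekeeping genes average 25.0, immediate early and stress genes 24.6 and Wnt pathway genes 27.5. Ribosomal protein genes average 21.4, oxidative phosphorylation genes 19.8 and histone genes 13.8. The part of CpG content in the family shares was not tested.

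**Figure D5:**
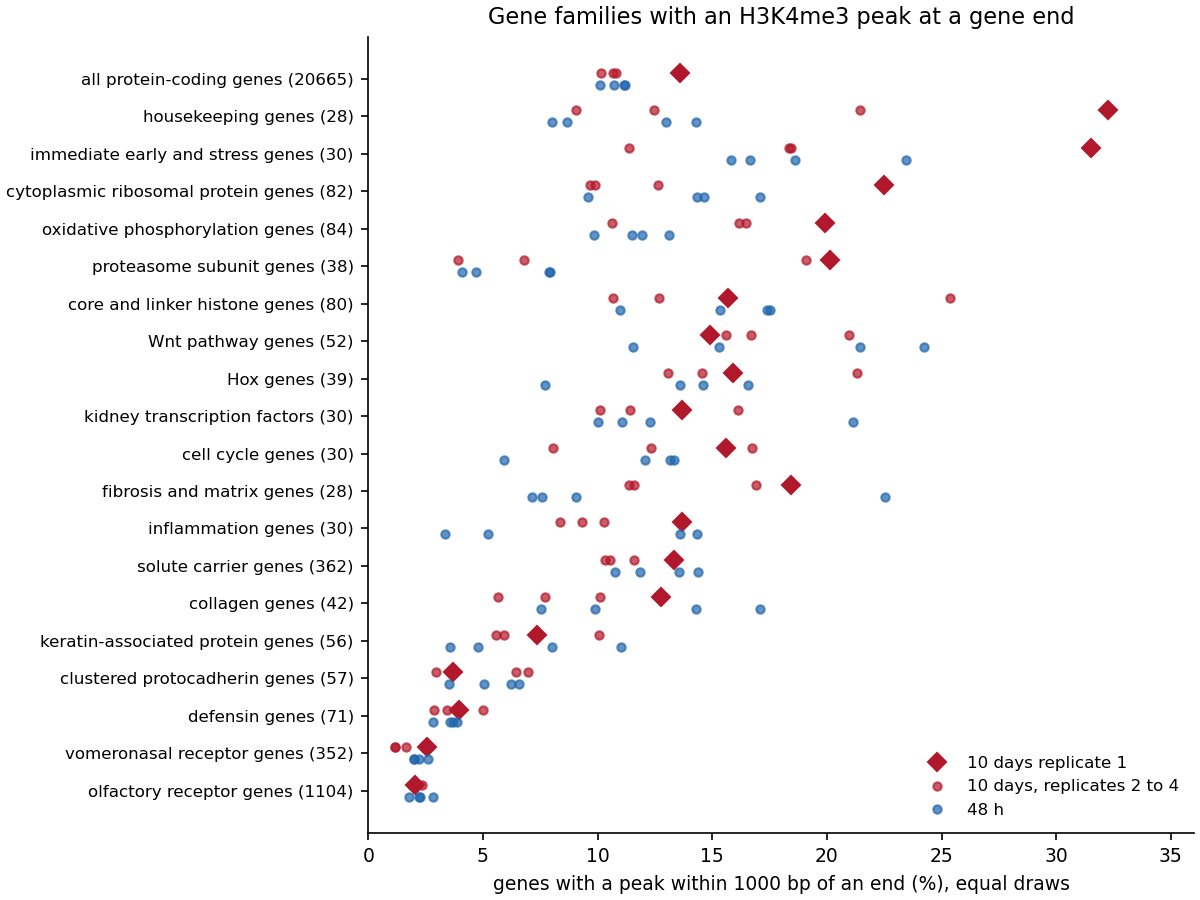
Share of genes of each family with a peak within 1000 bp of an end (horizontal axis, percent, equal draws), with the number of genes in brackets and a point for each list. Diamonds, 10 days replicate 1, lie to the right of the other lists for housekeeping, immediate early and stress, ribosomal and oxidative phosphorylation genes, and all 8 lists lie below 3% for olfactory and vomeronasal receptors.

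Kidney cell type markers were too rarely marked to check the identity of the sorted cells. Over 49 markers in 9 lists of tubule segments, injured tubule, endothelium, immune cells, stroma and podocytes, an end peak was found in 23 of 196 pairs of gene and list at 10 days (11.7%) and 25 of 196 at 48 h (12.8%), and 16 markers had none in any list. Over all genes the full lists averaged 22.9% and 12.9%. Of 8 injured tubule markers none had an end peak in a 10 days list and 3 had one in 1 list of 48 h each: Sox9 and the keratin gene Krt18 in replicate 4, and the matrix protein gene Spp1 in replicate 3. Epcam, an epithelial adhesion gene, was marked in 4 lists at 1 step, 2 from each time. Wnt4, a ligand of nephron formation, was marked at 1 step in 2 lists of 10 days and 1 of 48 h. Lrp2, the endocytic receptor megalin, had a single peak of 2 steps in 48 h replicate 2, the nephron transcription factor Pax8 a 1-step peak in 10 days replicate 3 and the kidney cadherin Cdh16 a 1-step peak in 48 h replicate 1. Havcr1, Vcam1 and Cdh6 had no end peak in the 8 lists. The 18 tubule segment markers had an end peak in 13 of 72 pairs at 10 days (18.1%) and 12 of 72 at 48 h (16.7%). The 23 markers of endothelium, immune cells, stroma and podocytes had one in 10 of 92 pairs at each time (10.9%). Of these, the podocyte gene Wt1 was marked in 4 lists, 1 from 10 days and 3 from 48 h. The endothelial gene Pecam1, the stromal gene Pdgfrb and the podocyte gene Podxl were marked in 2 lists each, and the immune gene Cd68 in 1. The part of cell composition in the results was not tested.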

How the data were processed

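Peaks were called for each antibody library against the input of its pellet, per the file headers (peak names); Partek 10, Bowtie2, Bowtie, MACS3 and mm10 are named in the submitters' processing notes, without settings. The deposited lists give, by the authors' caller, a fold (ratio of pileup to local background) and p- and q-values as −log10; the deposited score is the caller's display value for each peak and was not used, and the summit position places each peak. The 8 inputs were not analysed here. Fold and p were used within a list to solve peak height, assuming a Poisson tail. On 2000 peaks simulated by the same formulas with a known step, the number of steps was recovered for 100.0%. This checks the solving, not the assumed formulas or the step found in each list.

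Summits on chromosomes 1 to 19 were placed against RefSeq genes of GRCm38.p6. The strand and starts of 16457 of 20665 protein-coding genes came from the promoter table; genes without them enter by both ends. Shares of bases were taken over the span of the peaks. X held 901 to 2750, Y 173 to 957 and other names 10 to 22 peaks per list, left out.

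The exact permutation tests were two-sided, with 4 lists at each time. Sample groups came from the titles. P-values measure the spread between these lists. The gene lists (30), the tests and the members were chosen with earlier results of these data known; 22 measures were added after the data were seen. Named genes were up to 10 with an end peak in 8 of 8 lists, up to 8 specific to each time, up to 8 each with clustered or wide end peaks, the 10 tallest in 10 days replicate 1, up to 3 of each gene list and 8 kidney genes; the text names part of them. Alternatives were leaving out each list, a replicate block, full lists, equal numbers by p, −log10 q of at least 5, 2 or more steps, a 3000 bp window (5000 bp for neighbours) and starts alone. No pair of lists had more than 13 peaks with identical coordinates. Tests used SciPy 1.17.1, tables pandas 2.3.3 and NumPy 2.4.6, and plots Matplotlib 3.10.9, under Python 3.11.15.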

Additional observations from a re-analysis of the deposited data

Results flagged for a closer look

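In 44 groups of 4 lists, 6 values lay far from the nearest other list of their time (Dixon's ratio at the 95% level, which chance passes in about 1 in 20 groups). Of these, 4 were 10 days replicate 1: 165.5 genes with 2 or more peaks at one end (next 74.0), 8.31% of peaks near a start (next 5.93%), 50.9% of peaks of 3 or more steps near a start (next 12.0%) and a median summit position of +37.0 bp (next +120 bp). The other two were in 48 h lists: a body share away from gene ends of 48.7% in replicate 4 (next 47.5%) and 2.99% of wide peaks at a gene end in replicate 1 (next 5.26%). No cause was tested. The body share at 48 h stayed above that of the 10 days lists in the other 3 replicates as well (47.3% to 47.5% against 46.5% to 46.75%).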

How the results depend on the processing

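Of the 10 planned comparisons, 1 to 10 could be recomputed under each of 16 alternatives, and none of those recomputed had an adjusted p under 0.05. The fits without a list and the replicate block could not have reached it. In the other settings, a result alone at the smallest possible p could not have reached it either. Leaving out each list in turn, the difference (10 days minus 48 h) ranged from -0.190 to 0.709 percentage points for gene ends, -46.3 to 193.5 for genes with an end peak, -11.3 to 20.2 for genes with 2 or more peaks at one end, -0.00110 to 0.00445 for genes per gene-end peak and -0.0246 to 0.0162 points for peaks of 500 bp or wider. The first 3 turned without 10 days replicate 1, the fourth without 10 days replicate 3 and the last without 48 h replicate 3. In full lists the neighbour share turned to 4.07 points and genes per gene-end peak to -0.0650, where list length returns. By p, the share of wide peaks turned to 0.126 points, with 2 or more steps the share between genes to -3.01 points, and with a 3000 bp window the gene-end share to -0.0698 points. With 2 or more steps and no 10 days replicate 1, chosen after seeing the data, the gene-end share was -0.338 points, genes with an end peak -2.72 and genes per gene-end peak -0.00445. The causes were not tested. Genes specific to 10 days numbered 49.0 in full lists, 77.0 in full lists without 10 days replicate 1, 25.5 in equal draws without it and 18.2 with a 3000 bp window, where 48 h had 23.9.

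Replicate numbers did not pair the lists: same-numbered lists of both times had deviations correlated at -0.00213, 0.00891, 0.0110 and -0.00924 over genes, and 1 of 4 correlated best with its own number. With a replicate block (exact sign-flip of 4 paired differences, smallest p 0.125) the gene body difference of -1.21 points had p = 0.125, and no comparison passed. Depth was not given, so whether an absent peak is below detection cannot be told.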
